A study of Mus musculus with 6 samples.

Results

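Glioma cells carry surface and secreted molecules through which they can hold back T cells, natural killer cells and phagocytes. The 10 genes described here encode such molecules and were chosen by name, for these roles, with earlier results of these data known: Cd274, Cd276, Pvr, Pvrl2, Cd47, Nt5e, Ptges, Lgals1, Lgals3 and Lgals9. All 10 were listed among the 12151 genes of the deposited table. They were measured by RNA-seq in 3 libraries of mNS and 3 libraries of GL261, both mouse glioma cells in culture. The mNS cells are labelled as glioma stem-like cells and were kept as neurospheres in DMEM/F12 to which B-27, the growth factors EGF and basic FGF, and heparin were added; passages 72, 77 and 85 gave 1 library each. The GL261 cells are labelled as differentiated glioma cells and grew in DMEM with fetal bovine serum, and passages 17, 33 and 34 gave 1 library each (for the last, the title gives 34 and the passage field 33). Antibiotics, HEPES, glutamine and β-mercaptoethanol were shared by both media, and cells of both kinds were harvested in log phase. The labels name no genetic change, no treatment and no immune cells in either culture, and do not say from which tumour mNS was made. Line, medium and passage range changed together, so their parts in any difference below cannot be told apart. Beyond the passage, nothing says that a group's libraries were grown separately, and p-values then measure only the spread between these libraries.

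Immune checkpoint molecules act by contact between cells. PD-L1 (Cd274) binds PD-1 on T cells, CD155 (Pvr) and nectin-2 (Pvrl2) bind TIGIT and its relatives on T and natural killer cells, and CD47 binds SIRPα on phagocytes. A second class acts through small molecules: CD73 (Nt5e) makes adenosine outside the cell, and the prostaglandin E synthase encoded by Ptges makes prostaglandin E2, and both products dampen lymphocytes. Galectins are secreted lectins that bind sugars on lymphocyte surface proteins. In gliomas these molecules are studied as a means by which the tumour limits attack by the immune system.

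Values are normalised CPM, reads per gene scaled to the library with the authors' TMM factors. Between 12534422 and 13689479 reads fell in the listed genes of the mNS libraries and between 13825692 and 14225175 in those of GL261, and 1 read was worth between 0.0708 and 0.0773 CPM. Pearson's r of log2(CPM + 1) across the 12006 tested genes was between 0.987 and 0.997 within groups and between 0.845 and 0.856 across groups. Of 20 leukocyte and microglia markers, 3 were listed (Cd68, Csf1r and Tmem119), with summed levels of 8.50 to 11.2 CPM in mNS and 4.62 to 6.26 CPM in GL261. Cd68 (8.09 ± 1.32 CPM in mNS and 2.95 ± 0.156 CPM in GL261) and Tmem119 (1.64 ± 0.0202 CPM in mNS and 0.640 ± 0.158 CPM in GL261) were higher in mNS, Csf1r had 2 reads in mNS and 68 reads in GL261, and Ptprc, Itgam, Aif1 and Tyrobp were not listed. None of the 15 leukocyte receptors of the members looked for, such as Pdcd1, Tigit and Sirpa, was listed. Of 10 stem and progenitor genes tested, 6 were higher in mNS, among them Olig2 (437 ± 22.8 CPM in mNS and 8.54 ± 2.97 CPM in GL261; SD, n = 3 each, as for all means here). The 2 called lower were Nes (955 ± 236 CPM in mNS and 1518 ± 175 CPM in GL261) and Hes1 (1.02 ± 0.162 CPM in mNS and 21.0 ± 3.79 CPM in GL261). Sox2 was not called (184 ± 15.1 CPM in mNS and 181 ± 41.0 CPM in GL261). Of 10 markers of differentiated glia and neurons, 5 were higher in mNS and 5 lower. Fibroblast and pericyte markers, of which 5 of 10 were listed, summed to between 169 and 327 CPM in mNS and between 546 and 666 CPM in GL261; their part in the results was not tested.

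Of the 10 members, 4 rose in mNS (Nt5e, Ptges, Cd276 and Pvrl2), 3 fell (Lgals3, Lgals9 and Pvr), and Cd274, Cd47 and Lgals1 did not pass the test. Genes averaging 1 CPM or more, 12006 in all, were tested with limma on the log2(CPM + 1) scale, and a gene was called where its Benjamini-Hochberg adjusted p lay under 0.05. By that rule 64.3% of all genes tested were called, 32.2% higher and 32.1% lower in mNS, so that 7 of 10 members is a share near the background. A call together with a log2 difference of 1 or more in size was made for 4 members (Nt5e, Ptges, Lgals3 and Lgals9) and for 19.7% of all genes. The groups did not overlap for 8 members and for 69.9% of all genes. The median difference was 0.18 over the members and -0.00271 over all genes tested, and no direction was shared by the set. With columns rescaled to a common sum, 5 members were higher and 2 lower.

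**Figure D1:**
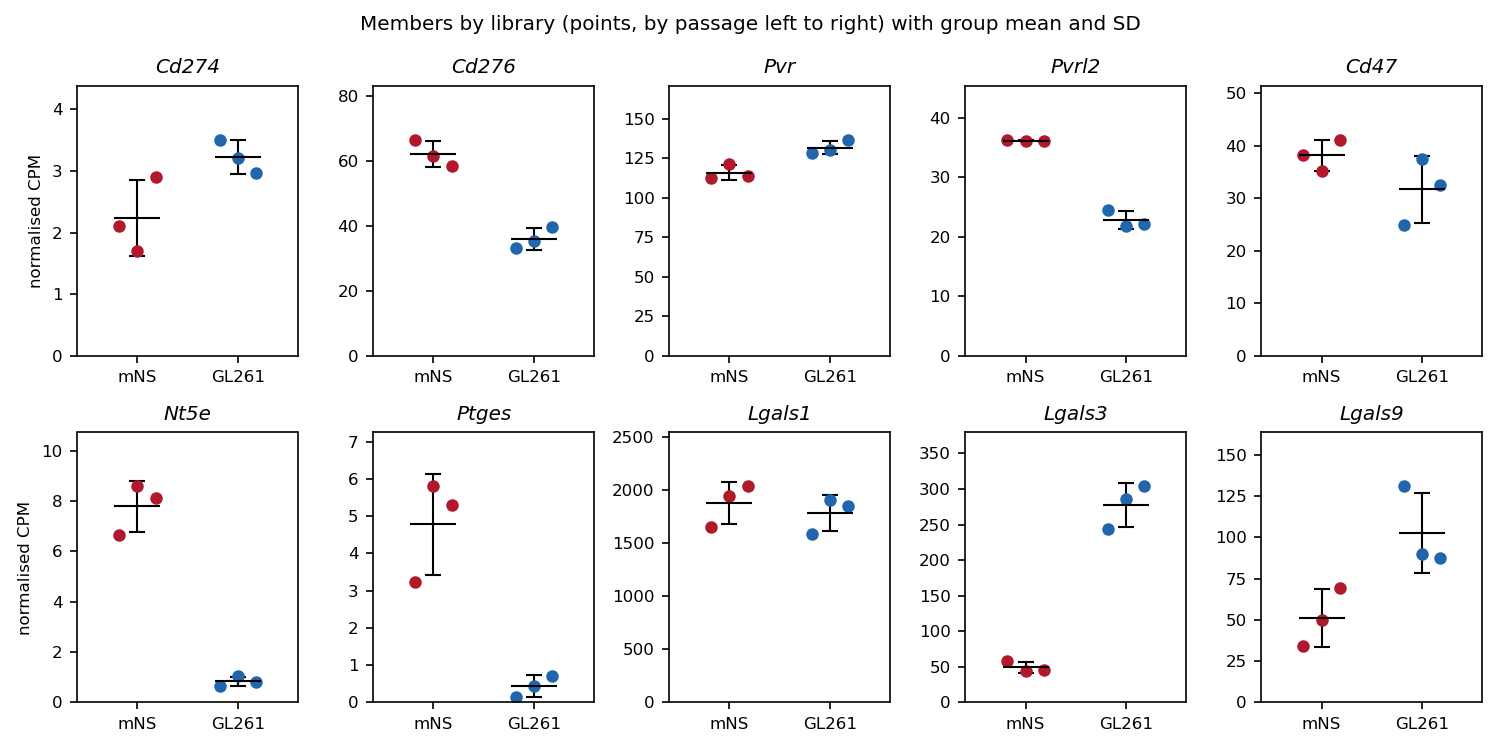
Normalised CPM of the 10 members in each library (points, ordered by passage within a group) with the group mean and SD (n = 3), mNS in red and GL261 in blue; each panel has its own linear axis from 0. Nt5e and Ptges stand far higher in mNS and Lgals3 far lower, whereas the points of Cd47 and Lgals1 overlap between the groups.

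Promoter sequence was read for members from RefSeq (GRCm38.p6), as the 250 bases before the start annotated there. Gene positions given below are GENCODE spans, whose outer end can differ from that start. The Ptges and Pvrl2 windows lie inside the GENCODE spans of their genes. Windows were found for 8 members. Those of the called members Lgals9, Ptges and Pvrl2 are shown because they hold matches to the motifs searched and lie outside annotated exons, apart from 22 bases of the Lgals9 window. Each runs 5′ to 3′ along the gene's strand, and capitals mark matches to a motif.
Lgals9: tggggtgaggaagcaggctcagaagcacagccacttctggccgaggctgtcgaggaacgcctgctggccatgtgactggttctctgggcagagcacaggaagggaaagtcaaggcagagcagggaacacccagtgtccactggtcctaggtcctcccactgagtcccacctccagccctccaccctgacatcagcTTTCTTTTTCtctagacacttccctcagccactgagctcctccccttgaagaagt
Ptges: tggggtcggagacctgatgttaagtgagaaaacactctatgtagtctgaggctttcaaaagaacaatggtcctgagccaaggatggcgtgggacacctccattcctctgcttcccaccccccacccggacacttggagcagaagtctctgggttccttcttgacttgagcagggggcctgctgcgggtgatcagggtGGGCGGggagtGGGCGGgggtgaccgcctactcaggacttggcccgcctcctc
Pvrl2: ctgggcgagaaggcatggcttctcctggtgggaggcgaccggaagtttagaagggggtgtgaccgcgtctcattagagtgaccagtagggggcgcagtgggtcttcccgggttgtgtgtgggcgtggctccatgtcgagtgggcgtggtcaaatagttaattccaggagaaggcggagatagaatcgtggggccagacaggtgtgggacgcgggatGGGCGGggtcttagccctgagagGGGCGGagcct
The Lgals9 window is chr11:78984925-78985174, minus strand, and its capitals are a match to the core of the interferon-stimulated response element, GAAA NN GAAA, read on the opposite strand and starting 55 bases before the start. The Ptges window is chr2:30903298-30903547, minus strand, with 2 GC boxes, GGGCGG, at 53 and 42 bases before the start. The Pvrl2 window is chr7:19749574-19749823, minus strand, also with 2 GC boxes, at 34 and 11 bases. Both strands were searched. The interferon element was found in 2.98% of all 32851 windows of this length and in 1 of 8 members, and the GC box in 32.7% of windows and in 7 of 8 members, all but Lgals9. No match was found in any member for the STAT element TTCNNNGAA (7.02% of all windows), the κB element GGG NN TTTCC (1.41%) or the AP-1 element TGANTCA (6.75%), and the hypoxia element core ACGTG (16.6%) was found for Cd47. Such a match describes letters in the window only.

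Cd274, the gene of PD-L1, was sparsely expressed in both cultures and did not pass the test. It lies on chromosome 19, 29367455 to 29388095, in GRCm38, the assembly of mm10. It had 2.11, 1.70 and 2.90 CPM in mNS at passages 72, 77 and 85, against 3.5, 3.21 and 2.96 CPM in GL261 at passages 17, 33 and 34. Every mNS value lay below every GL261 value, but the highest mNS library came within 1 read's worth of the lowest GL261 library. The log2 difference was -0.40 ± 0.17 (SE), with a 95% interval of -0.79 to -0.01 and a limma adjusted p of 0.0677. These levels rest on 91 reads over the mNS libraries and 131 over the GL261 libraries, and the ratio of those reads, mNS over GL261 and scaled for depth, was 0.70 with an exact 95% binomial interval of 0.530 to 0.922, which covers counting error only. Cd274 became a call under 3 alternatives: under quantile normalisation (-0.62, adjusted p = 0.0104), without mNS replicate 3, at passage 85 (-0.54, 0.0234), and without the variance trend (-0.40, 0.0408).

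The regulators that PD-L1 is known to depend on went both ways. Of 35 genes in that list, 11 rose, 11 fell and 13 were not called, with a median difference of 0.02. Interferon signalling induces PD-L1, and its genes differed in direction. The interferon gamma receptor chain gene Ifngr2 rose to 49.3 ± 6.71 CPM in mNS, against 14.2 ± 0.242 CPM in GL261 (log2 difference 1.72, limma adjusted p = 2.63e-06), and the receptor kinase gene Jak2 rose to 82.2 ± 2.61 CPM in mNS, against 36.9 ± 1.86 CPM in GL261 (1.14, 2.30e-06). The transcription factor gene Irf9 fell to 34.8 ± 8.10 CPM in mNS, against 121 ± 14.9 CPM in GL261 (-1.78, limma adjusted p = 1.77e-05) and Irf1, which binds the PD-L1 promoter, to 52.0 ± 4.92 CPM in mNS, against 81.4 ± 1.34 CPM in GL261 (-0.64, 0.000164). The feedback inhibitor gene Socs3 fell as well (4.55 ± 0.487 CPM in mNS and 25.6 ± 7.20 CPM in GL261). Cmtm6, whose product keeps PD-L1 at the cell surface, stood at 46.7 ± 4.08 CPM in mNS and 52.5 ± 3.31 CPM in GL261 and was not called (adjusted p = 0.133). Zdhhc9, which encodes an enzyme that adds palmitate to PD-L1 in human cells, rose to 19.9 ± 0.923 CPM in mNS, against 3.25 ± 0.426 CPM in GL261. Ifngr1 rose by 0.41, but its call was lost without each of 4 libraries in turn (mNS replicates 1 and 2, GL261 replicates 2 and 3), with adjusted p between 0.0553 and 0.101.

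Cd276, which encodes the B7 family molecule B7-H3 that is abundant on many tumours, rose in mNS. Its values were 66.5, 61.7 and 58.6 CPM in mNS and 33.2, 35.3 and 39.7 CPM in GL261, with a wide gap between the groups. This gave a log2 difference of 0.77 ± 0.09 (limma adjusted p = 0.000101), and the ratio of group means was 1.73, or 1.66 to 1.82 with each library left out. The gene is on chromosome 9, 58524298 to 58555437. An annotated transcript of the opposite strand, Gm10657, overlaps its exons, as do other antisense transcripts for Cd274 and Pvrl2, and while the library kit keeps strand, the sources used here do not say whether reads were counted by it, so reads of each pair cannot be told apart.

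The list of other surface ligands of immune cells holds both inhibitory and costimulatory molecules, and 7 of its genes were tested besides the members: 3 rose, 1 fell and 3 were not called, with a median of -0.22. Cd200, an inhibitory ligand of myeloid cells, rose to 6.95, 8.12 and 11.8 CPM in mNS, against 0.447, 0.374 and 0.361 CPM in GL261 (log2 difference 2.81 ± 0.19, adjusted p = 3.58e-06). Icosl, the ligand gene of the costimulatory receptor ICOS, rose to 3.12 ± 0.451 CPM in mNS, against 1.32 ± 0.419 CPM in GL261, and Vsir, the gene of the checkpoint molecule VISTA, listed as 4632428N05Rik, to 1.84 ± 0.378 CPM in mNS, against 0.762 ± 0.276 CPM in GL261. The death ligand gene Tnfsf10 fell to 0.471 ± 0.0222 CPM in mNS, against 1.74 ± 0.610 CPM in GL261. With the members counted, 5 of the 9 genes of the list were called, and 8 without mNS replicate 3. Pdcd1lg2 (PD-L2), Cd80, Cd86 and Tnfrsf14 were not listed.

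The ligands of TIGIT moved apart by a small amount. Pvrl2 rose to 36.2, 36.1 and 36.0 CPM in mNS, against 24.5, 21.8 and 22.2 CPM in GL261, so that the mNS libraries were nearly equal to each other and well above those of GL261. Its log2 difference was 0.64 ± 0.08 (limma adjusted p = 0.000184), a ratio of 1.58, and the gene, now named Nectin2, is on chromosome 7, 19716644 to 19750483. Pvr, close by on the same chromosome (19903578 to 19921160), fell to 112, 121 and 114 CPM in mNS, against 128, 130 and 137 CPM in GL261. Its groups did not overlap, but the difference was -0.19 ± 0.06 (adjusted p = 0.0266), and its mNS mean was 87.9% of the GL261 mean, the smallest difference of the calls among the members. That call did not hold with columns rescaled to a common sum (-0.10, adjusted p = 0.207), under quantile normalisation (-0.12, 0.130), without the variance trend (0.0556) or without any 1 of 4 libraries (mNS replicates 1 and 3, GL261 replicates 2 and 3; 0.0601 to 0.0863).

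Among 6 other genes of the nectin and PVR family, 2 rose, 2 fell and 2 were not called, with a median of 0.06. Cadm4, an adhesion molecule of glia, fell to 38.4 ± 2.07 CPM in mNS, against 209 ± 38.5 CPM in GL261 (log2 difference -2.40, adjusted p = 9.01e-07), and Pvrl4 rose to 4.0 ± 0.640 CPM in mNS, against 1.06 ± 0.274 CPM in GL261. Pvrl3, a partner of nectin-2 and of CD155, was 39.5 ± 1.60 CPM in mNS and 34.4 ± 2.33 CPM in GL261 and was not called (adjusted p = 0.0672). Cadm2 rose with unequal mNS libraries, 6.27, 1.78 and 1.63 CPM in mNS, against 0.149, 0.0747 and 0.144 CPM in GL261; without mNS replicate 1 its mean fell under 1 CPM and it was no longer tested. The call of Cadm1 (-0.53) was lost without mNS replicate 1 and without GL261 replicate 2 or 3 (adjusted p 0.0530 to 0.0700), and with the members counted 6 of 8 genes of the family were called, or 3 without mNS replicate 1.

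Cd47 did not pass the test. Its values were 38.4, 35.3 and 41.1 CPM in mNS and 25.0, 37.5 and 32.7 CPM in GL261, where the passage 17 library was the lowest of the 6 and the passage 33 library lay within the mNS range. The difference on the log2 scale was 0.28 ± 0.14 (95% interval -0.05 to 0.60, limma adjusted p = 0.116). It became a call without GL261 replicate 2 (0.41, adjusted p = 0.0370) and with columns rescaled to a common sum (0.37, 0.0471), whereas without GL261 replicate 1, at passage 17, the difference was 0.12 (adjusted p = 0.318). The gene is on chromosome 16, 49800533 to 49915010.

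In the list of the CD47 axis and phagocytosis signals, 7 of 11 genes tested besides Cd47 fell in mNS, 2 rose and 2 were not called, with a median of -0.80. Over all genes tested, 32.1% were called lower and 32.2% higher. The list is wider than CD47 and its partners, and the falls include the phagocytosis genes Calr, Lrp1, Itgav and Anxa1. The partners of CD47 included genes that went in opposite directions. Thbs1, the matrix protein thrombospondin 1 that binds CD47, fell to 26.8, 47.3 and 75.2 CPM in mNS, against 157, 355 and 365 CPM in GL261 (log2 difference -2.55 ± 0.40, adjusted p = 0.000583). Thbs2, its close relative, rose to 592, 976 and 1024 CPM in mNS, against 58.9, 34.2 and 47.5 CPM in GL261 (4.17 ± 0.24, 1.30e-06). The glutaminyl cyclase gene Qpctl, whose product finishes the end of CD47 that SIRPα binds, fell to 6.43 ± 0.136 CPM in mNS, against 9.01 ± 0.911 CPM in GL261 (-0.43), while the related Qpct rose to 28.8 ± 0.597 CPM in mNS, against 6.75 ± 1.5 CPM in GL261 (1.96). Cd24a, whose human counterpart CD24 also restrains phagocytes, fell to 1.28, 2.17 and 3.12 CPM in mNS, against 37.8, 92.8 and 82.4 CPM in GL261 (-4.44, 7.12e-06).

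**Figure D2:**
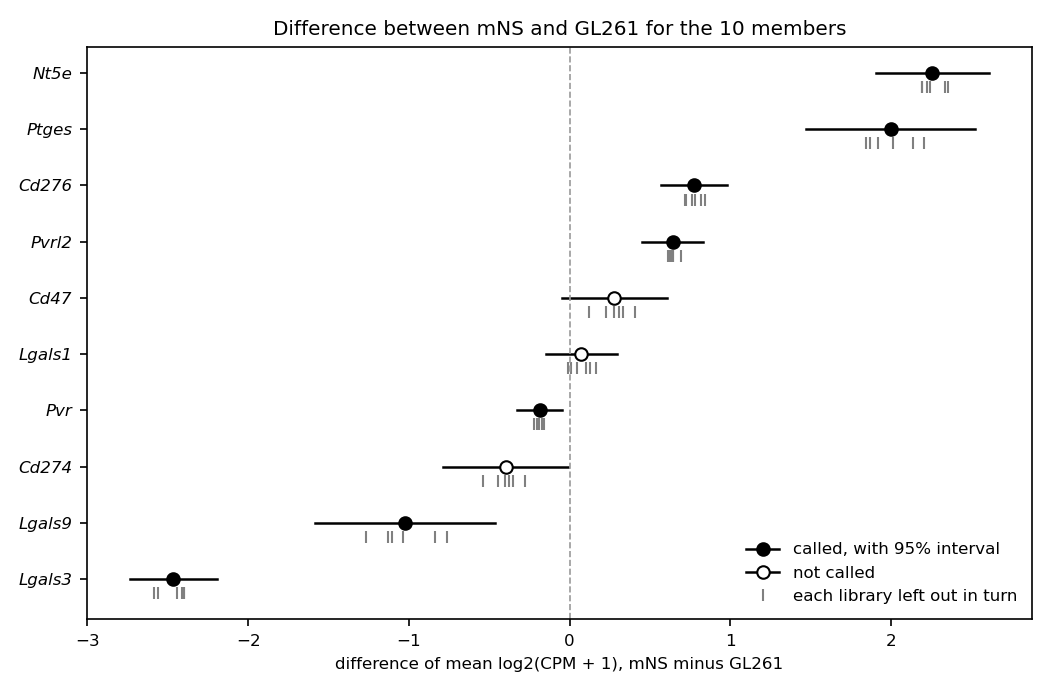
Difference of mean log2(CPM + 1), mNS minus GL261, for the 10 members with the 95% interval from limma (filled, called; open, not called) and, as ticks, the difference with each library left out in turn. Nt5e (2.26) and Ptges (2.0) are highest and Lgals3 (-2.47) lowest, and for Lgals1 alone the ticks reach both sides of 0.

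Nt5e, the ectonucleotidase CD73 that turns AMP into adenosine outside the cell, rose most of the members on the log2(CPM + 1) scale. It had 6.64, 8.58 and 8.14 CPM in mNS, against 0.671, 1.05 and 0.795 CPM in GL261. The groups were far apart, and the values rest on 314 reads in mNS and 34 reads in GL261. On the log2 scale the difference was 2.26 ± 0.15 (limma adjusted p = 3.81e-06), and the ratio of reads scaled for depth was 9.31 (counting interval 6.52 to 13.7). Of all genes tested, 5.66% had a larger absolute difference. The gene is on chromosome 9, 88327197 to 88372092.

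The other steps of the adenosine pathway went both ways: of 19 genes tested besides Nt5e, 7 rose, 9 fell and 3 were not called, with a median of -0.70. Entpd2, an ecto-enzyme that takes ATP to ADP, fell to 0.377, 0.0773 and 0.142 CPM in mNS (8 reads in all), against 51.1, 61.5 and 78.0 CPM in GL261 (log2 difference -5.74 ± 0.18, adjusted p = 4.37e-08). Enpp3, a surface pyrophosphatase that takes ATP to AMP, rose to 41.1, 24.9 and 27.1 CPM in mNS, against 1.86, 0.822 and 1.08 CPM in GL261 (3.82 ± 0.23, 1.66e-06). Ada, the deaminase that removes adenosine, also rose, to 14.4, 14.2 and 15.1 CPM in mNS, against 1.71, 1.94 and 1.23 CPM in GL261 (2.58 ± 0.14, 1.01e-06). Other genes of the same steps fell. Alpl, grouped with Nt5e, had 11.6 ± 1.26 CPM in mNS and 27.0 ± 7.27 CPM in GL261 (-1.13, 0.000795). Adk, grouped with Ada, had 84.0 ± 4.51 CPM in mNS and 146 ± 6.89 CPM in GL261 (-0.79, 1.57e-05). The ATP release channel gene Panx1 fell to 0.223 ± 0.128 CPM in mNS, against 6.91 ± 0.438 CPM in GL261, and the ATP receptor genes P2rx7 (71.1 ± 3.52 CPM in mNS and 405 ± 54.6 CPM in GL261) and P2ry2 (1.01 ± 0.147 CPM in mNS and 11.2 ± 1.84 CPM in GL261) also fell. Entpd1, which encodes CD39, and the adenosine receptor genes were not listed.

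Ptges, the inducible synthase of prostaglandin E2, rose in mNS and was near the detection limit in GL261. Its values were 3.25, 5.80 and 5.31 CPM in mNS, against 0.149, 0.448 and 0.722 CPM in GL261. The lowest mNS library stood well above the highest GL261 library. Over the 3 libraries of each group this was 193 reads in mNS and 18 in GL261, with a depth-scaled ratio of 10.8 (counting interval 6.66 to 18.6). The log2 difference was 2.0 ± 0.23 (limma adjusted p = 8.76e-05), and with each library left out the ratio of mean CPM was between 8.17 and 16.0, the highest without GL261 replicate 3. Of all genes tested, 7.11% had a larger absolute difference. The gene is on chromosome 2, 30889471 to 30929863.

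In the rest of the prostaglandin list, 4 of 11 genes rose, 3 fell and 4 were not called, with a median of 0.18. The cyclooxygenase genes Ptgs1 and Ptgs2, which supply the substrate of the synthase, and Hpgd, which breaks prostaglandin E2 down, were not listed. Of the other E synthases, Ptges2 was 35.3 ± 2.98 CPM in mNS and 30.8 ± 1.58 CPM in GL261 and was not called, while Ptges3 fell by 0.45 (155 ± 25.6 CPM in mNS and 212 ± 36.0 CPM in GL261), a call that was lost without mNS replicate 2 or 3, without GL261 replicate 2, with columns rescaled to a common sum and under quantile normalisation (adjusted p 0.0511 to 0.0842). Ptgds, which makes prostaglandin D2, rose to 47.4, 38.5 and 36.0 CPM in mNS, against 0.373, 1.57 and 0.867 CPM in GL261 (log2 difference 4.46 ± 0.22, adjusted p = 6.29e-07). Abcc4, an exporter of prostaglandins, rose to 120 ± 6.11 CPM in mNS, against 39.3 ± 9.80 CPM in GL261, and Acsl4, which charges arachidonic acid, to 309 ± 39.2 CPM in mNS, against 160 ± 4.81 CPM in GL261. Ptgfrn, an inhibitor of the prostaglandin F receptor, fell to 0.605 ± 0.494 CPM in mNS, against 35.7 ± 8.50 CPM in GL261.

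**Figure D3:**
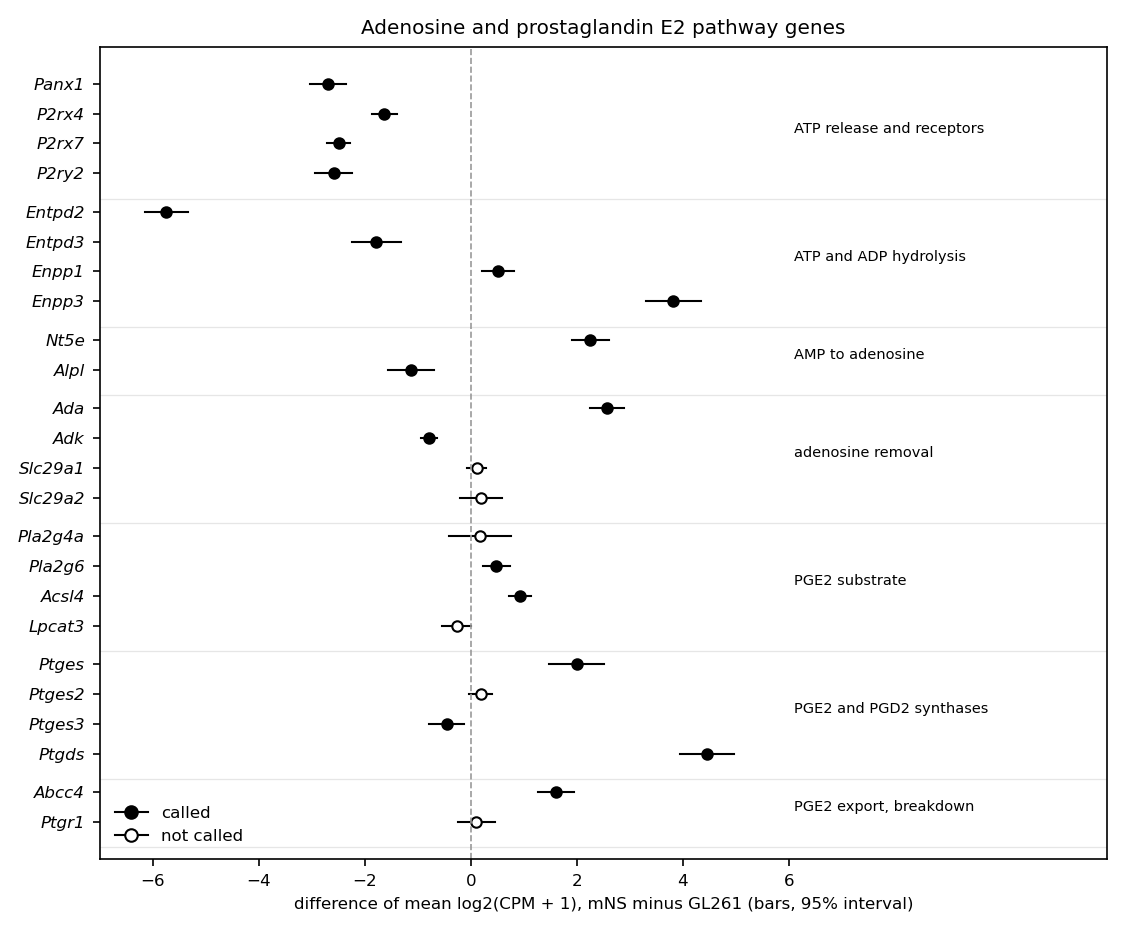
Difference of mean log2(CPM + 1), mNS minus GL261, with 95% intervals from limma for listed genes of the adenosine and prostaglandin E2 pathways, grouped by step (filled, called; open, not called). Nt5e and Ada lie above 0, while Alpl and Adk, drawn at the same steps, lie below 0. Enpp3 and Enpp1 lie above 0, and Entpd2 and Entpd3 lie below. Entpd5 (0.76) and Entpd6 (1.17), both called higher in mNS, are not drawn. All 4 genes of ATP release and ATP receptors shown lie below 0, and Ptges lies above 0 beside Ptgds and Abcc4. The genes shown were picked by role, some of them after their values were seen.

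The 3 galectin members differed from each other. Lgals1, galectin-1, did not pass the test. It had 1655, 1944 and 2037 CPM in mNS and 1593, 1913 and 1850 CPM in GL261, with overlapping groups. Its log2 difference was 0.07 ± 0.10 (95% interval -0.15 to 0.29, limma adjusted p = 0.537), and its sign turned without GL261 replicate 1 (-0.00754). Quantile normalisation made it a call (0.25, adjusted p = 0.0459). Lgals1 is on chromosome 15, 78926725 to 78930465.

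Lgals3, galectin-3, fell furthest. It had 58.2, 44.8 and 45.5 CPM in mNS, against 243, 286 and 304 CPM in GL261, and no mNS library came near the GL261 range. The log2 difference was -2.47 ± 0.12 (limma adjusted p = 4.93e-07), and the mNS mean was 17.9% of the GL261 mean. Of all genes tested, 4.77% had a larger absolute difference. Lgals3 is on chromosome 14, 47367751 to 47386160.

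Lgals9, galectin-9, a ligand of TIM-3 on T cells, fell to 34, 50.2 and 69.4 CPM in mNS at passages 72, 77 and 85, against 131, 90.1 and 87.3 CPM in GL261 at passages 17, 33 and 34. The groups did not overlap, but both were spread out (coefficients of variation of 34.6% in mNS and 23.7% in GL261, where Pvr had 4.13% in mNS and 3.28% in GL261). For Lgals9 the log2 difference was -1.02 ± 0.24 (limma adjusted p = 0.00584), and it was between -1.27 and -0.77 with each library left out, always with a call. The promoter window printed above holds the interferon element match, and whether that match bears on the level was not tested. In mNS the lowest Lgals9 value was at passage 72 and the highest at passage 85, with 1 library a passage and no test. Lgals9 is on chromosome 11, 78962974 to 78984946.

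Of 11 other genes in the galectin list, 5 rose, 4 fell and 2 were not called, with a median of -0.10. Lgals3bp, a secreted glycoprotein that binds galectins, fell to 40.1, 64.6 and 77.2 CPM in mNS, against 246, 196 and 217 CPM in GL261 (log2 difference -1.88 ± 0.21, adjusted p = 7.13e-05). Lgals8 was 23.4 ± 3.60 CPM in mNS and 26.3 ± 1.64 CPM in GL261 and was not called (adjusted p = 0.246). Among enzymes that build the sugars galectins bind, Mgat5, which branches N-glycans, rose to 15.4 ± 1.26 CPM in mNS, against 7.18 ± 2.05 CPM in GL261, and St6gal1, whose sialic acid cap blocks binding by galectin-1, rose to 16.9 ± 2.12 CPM in mNS, against 6.84 ± 1.77 CPM in GL261. The surface glycoprotein genes Cd44 (240 ± 19.7 CPM in mNS and 394 ± 12.6 CPM in GL261) and Itgb1 (1356 ± 16.7 CPM in mNS and 2221 ± 112 CPM in GL261) fell by 0.71 each on the log2 scale.

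The genes whose pattern over the 6 libraries was closest to a member were found by the root mean square distance between profiles of log2(CPM + 1), each centred on its own mean, among 11996 genes that are not members. For Lgals9 they were Parp14 (distance 0.097), Mx2 (0.130) and Scd1 (0.137). Parp14 had 20.4, 30.1 and 46.4 CPM in mNS and 90.1, 65.8 and 58.8 CPM in GL261, and Mx2, an antiviral gene induced by interferon, had 3.10, 3.71 and 5.24 CPM in mNS and 12.2, 8.07 and 7.15 CPM in GL261. Scd1 had 241, 332 and 365 CPM in mNS and 752, 515 and 550 CPM in GL261. Each of these genes shares with Lgals9 the order of passages within mNS and the highest GL261 value at passage 17. Stat2, a transcription factor gene of interferon signalling, had the same order within mNS (18.9, 24.4 and 31.0 CPM) but differed less within GL261 (60.9, 53.5 and 53.0 CPM). Irf9 also had that order within mNS (28.4, 32.1 and 43.9 CPM) but was lowest at passage 17 within GL261 (104, 125 and 132 CPM). The closest genes included Cadm4, Klhl21 and C1qtnf1 for Lgals3, Ramp2 and Polr3k for Nt5e, and Cyth4, 8430419L09Rik and A330021E22Rik for Ptges, at distances of 0.0847 to 0.143. With 2 groups this likeness is mostly that of the group difference, and it carries no test.

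**Figure D4:**
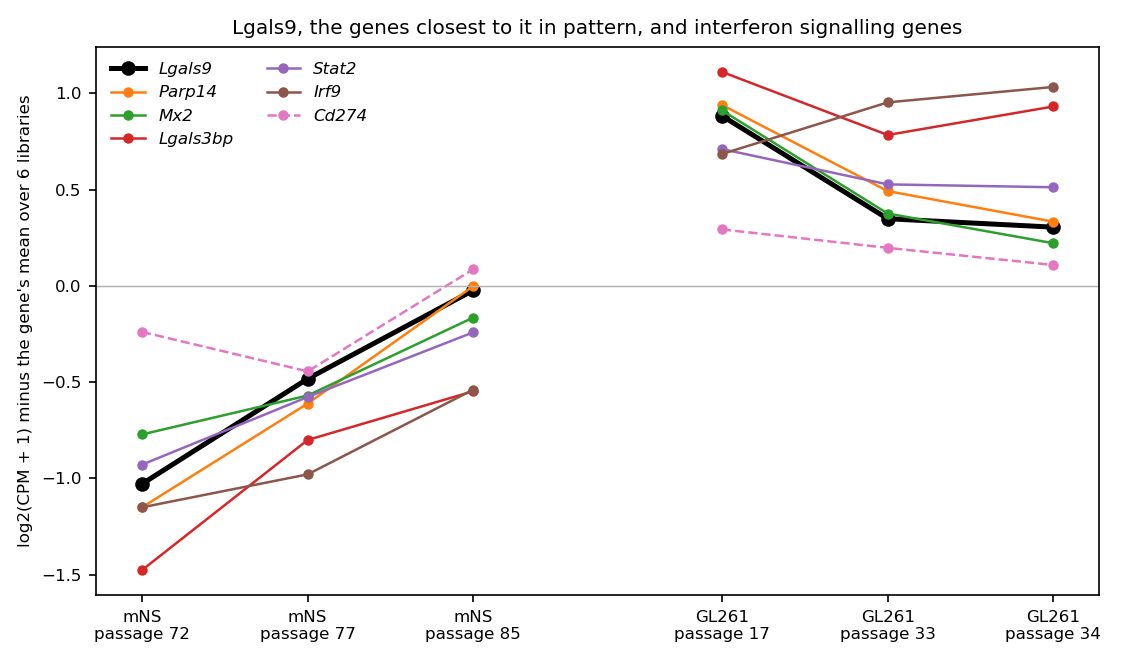
Level of each gene as log2(CPM + 1) minus its mean over the 6 libraries, by group and passage (1 library each; lines join libraries of a group). Lgals9 (black) and its nearest genes Parp14 and Mx2 are lowest in mNS at passage 72 and highest in GL261 at passage 17, and Cd274 (dashed) has a smaller span. Irf9 is instead lowest in GL261 at passage 17. Scd1, also among the nearest genes of Lgals9, is not drawn.

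Levels of the members were ranked per kilobase of exon (the union of annotated exons), since longer genes collect more reads. Lgals1 led in both cultures with 2348 ± 249 CPM per kb in mNS and 2232 ± 212 CPM per kb in GL261. That was above 99.97% (mNS) and 99.94% (GL261) of the 12046 genes of the deposited table that matched the annotation. Genes that the table does not list have no place in these shares. In mNS the order then ran Pvr (39.9 CPM per kb), Lgals9 (31.7), Lgals3 (31.2), Cd276 (17.3), Pvrl2 (10.5), Cd47 (6.14), Nt5e (1.95), Ptges (1.31) and Cd274 (0.618). The libraries of Pvr and Lgals9, and those of Lgals9 and Lgals3, overlapped, and the other neighbours did not. In GL261 the order was Lgals1, Lgals3 (175 CPM per kb), Lgals9 (63.7), Pvr (45.4), Cd276 (10.0), Pvrl2 (6.63), Cd47 (5.09), Cd274 (0.891), Nt5e (0.210) and Ptges (0.121), where Nt5e and Ptges alone overlapped. Cd274 was thus above Nt5e and Ptges in GL261 and below both in mNS, and 6.45% of the matched listed genes in mNS and 10.4% in GL261 had a lower level per kb. The median of the matched listed genes was 11.0 CPM per kb in mNS and 10.9 CPM per kb in GL261.

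Within GL261 the passage 17 library differed most from the others for Ptges (0.149 CPM, where passages 33 and 34 averaged 0.585 CPM), which is 2 reads, for Lgals9 (131 and 88.7 CPM) and for Cd47 (25.0 and 35.1 CPM). These are single libraries and carry no test.

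Soluble factors that gliomas use against immune cells also changed in both directions. Of 16 genes tested, 8 rose, 5 fell and 3 were not called, with a median of 0.19. Tgfb2, the TGF-β isoform long known from glioma, fell to 0.302, 0 and 0.0708 CPM in mNS (5 reads), against 40.6, 37.0 and 30.3 CPM in GL261 (log2 difference -5.04 ± 0.16, adjusted p = 5.12e-08), and Tgfb1 fell to 0.601 ± 0.174 CPM in mNS, against 5.10 ± 0.289 CPM in GL261. Spp1, the gene of osteopontin, rose to 62.0, 105 and 96.2 CPM in mNS, against 4.03, 7.85 and 9.54 CPM in GL261 (3.48 ± 0.28, 1.13e-05), and the alarmin gene Il33 to 59.0, 125 and 166 CPM in mNS, against 7.68, 15.7 and 18.3 CPM in GL261 (2.94 ± 0.39, 0.000227). Ccl2, a monocyte attractant, had 87 reads in mNS and 1 in GL261. Csf1, the macrophage growth factor gene, was 38.8 ± 8.80 CPM in mNS and 36.1 ± 8.15 CPM in GL261 and was not called (adjusted p = 0.685), and Il6 was not listed.

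Ligands of natural killer and related cells had 3 rises and 3 falls among 10 genes tested, with a median of 0.19. Ulbp1, a ligand of the activating receptor NKG2D, fell to 90.0 ± 11.2 CPM in mNS, against 120 ± 5.78 CPM in GL261, and its relative Raet1e rose to 11.0 ± 2.80 CPM in mNS, against 6.47 ± 0.831 CPM in GL261; the Raet1 genes are near-identical copies, so reads may be divided among them and their values are uncertain. Cd1d1, which presents lipids to natural killer T cells, rose to 7.77 ± 1.36 CPM in mNS, against 1.57 ± 0.203 CPM in GL261. The adhesion ligand gene Icam1 fell to 1.75 ± 0.455 CPM in mNS, against 7.79 ± 1.27 CPM in GL261, while Icam2 rose to 8.42 ± 0.788 CPM in mNS, against 0.0971 ± 0.110 CPM in GL261.

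**Figure D5:**
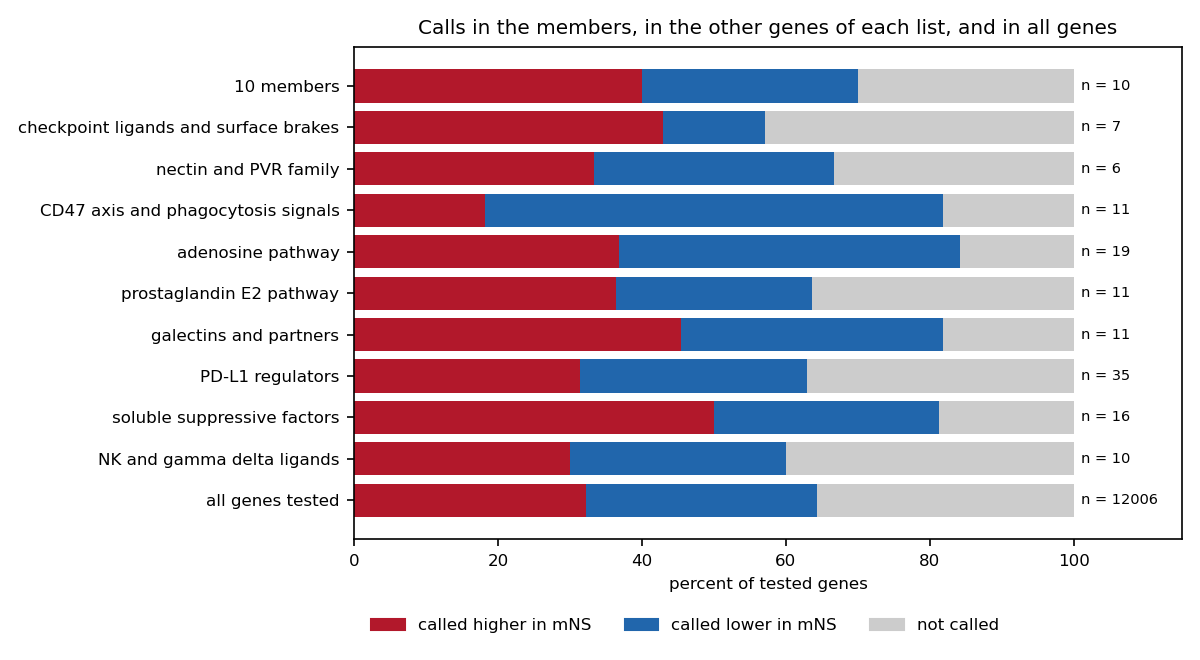
Percent of tested genes called higher in mNS (red), called lower (blue) and not called (grey) for the 10 members, for the other tested genes of each list (n at right, members left out; the checkpoint list also holds costimulatory ligands) and for all 12006 genes tested. The members have 4 rises and 3 falls, beside 32.2% and 32.1% over all genes.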

How the data were processed

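Stranded single-end libraries were made after removal of ribosomal RNA, per the labels' protocols. Tools named without roles in the submitters' processing notes are edgeR 3.4.2, HTSeq 0.5.3p9 and TopHat2 (version 2), with build mm10. Each value of the deposited table is a normalised signal, CPM with the authors' TMM scaling, per the series text and file headers. The sources used here do not give the limit for listing a gene. Low values step by the worth of 1 read; divided by it, 100% of values came out whole within 0.001 reads, which gave the depths. The main test compared 3 mNS with 3 GL261 libraries in limma 3.58.1 under R 4.3.3 (two-sided, lmFit and eBayes, variance trend) on log2(CPM + 1). Adjustment ran over the 12006 genes averaging 1 CPM or more, and 145 lay below. Log2 differences are on that scale, which understates changes of low genes; ratios are of mean CPM or of reads. On recovered reads, edgeR 4.0.16 by quasi-likelihood called 7651 genes, its exact test 7702 and DESeq2 1.42.0 7353. Other alternatives were pseudocounts of 0.5 and 0.1, filters, 3 rescalings, no trend, an adjusted p under 0.01 and each library left out. Members, gene lists and the naming rule (members; up to 6 called genes per list with the largest differences; fixed partners and markers; nearest genes) were chosen with earlier results of these data known. Of 287 symbols in the lists, 168 genes were listed. Lists are described by counts and medians, with no set test. Positions and exon lengths come from GENCODE M21 (GRCm38), which matched 12046 symbols. Plots used matplotlib 3.10.9 and intervals scipy 1.17.1, in Python 3.11.15. With no molecular identifiers, reads are not independent molecules. Human glioma cultures mentioned in the protocol are not analysed here. Some genes that the naming rule picks are not reported here.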

Additional observations from a re-analysis of the deposited data

How the results depend on the processing

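Of the 10 members, Nt5e, Ptges, Cd276, Pvrl2, Lgals3 and Lgals9 kept their direction and call under all 18 alternatives. Pvr lost its call under 8 of them, with no change of sign. Cd274 became a call under 3, Cd47 under 2 and Lgals1 under 1, and the cause was not tested. With each library left out, between 6 and 7 members were called (4 to 5 higher, 2 to 3 lower) and between 6603 and 7781 genes in all. With columns rescaled to a common sum, which moved the median gene by 0.08 on the log2 scale, 5 members were higher and 2 lower, and under quantile normalisation 5 and 3, against 4 and 3 in the main test. Among 100 other named genes, 1756 of 1792 alternative values gave the same call. With the members included, signs turned for 5 genes: Flt1, Sox2, Csf1, Jak1 and the member Lgals1. None of them was called in the main test or under the alternative that turned the sign. On the positive side, Jak1 was a call without GL261 replicate 1 (0.16, adjusted p = 0.04996) and Lgals1 under quantile normalisation (0.25, 0.0459). For Flt1 the difference was 0.0463 with columns rescaled to a common sum, 0.0403 without mNS replicate 3 and 0.20 without GL261 replicate 1 (-0.18 to 0.20 with each library left out). For Sox2 it was -0.00074 without mNS replicate 1 and -0.15 without GL261 replicate 1 (-0.15 to 0.18). Csf1 gave -0.00272 without mNS replicate 2 and -0.0854 without GL261 replicate 1 (-0.0854 to 0.30), Jak1 -0.0544 and -0.03 without GL261 replicates 2 and 3 (-0.0544 to 0.16), and Lgals1 -0.00754 without GL261 replicate 1 (-0.00754 to 0.16). No paired analysis was possible because the labels give passages and no shared replicate numbers. Depth limits Cd274, Ptges and Nt5e most. Cd274 had 91 reads over the mNS libraries and 131 over the GL261 libraries, and Ptges and Nt5e had 18 and 34 over the GL261 libraries.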
